A study of Arabidopsis thaliana with 15 samples.

Results

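Cercosporin at 100 µM was set against untreated controls in whole 2-week-old Arabidopsis thaliana seedlings of the wild type Col-0, with 3 libraries on each side. These 6 libraries are those whose sample titles name the 100 µM dose or the control, of 15 in all, and the other 9 came from seedlings given 0.1, 1 or 10 µM. Of 14190 genes in the count table, 10374 passed a filter on low counts and were tested. Cercosporin seedlings stood in the toxin in the dark for 1 h, were washed 3 times and were then lit at 30 µE for 30 min. Control plates were kept lit for the whole time and had no dark step, so toxin, dark step, soaking and washing cannot be told apart between 100 µM and control. The 0.1, 1 and 10 µM seedlings went through the same dark step and washes. All plants had grown on half-strength MS medium with sucrose at 22 °C in days of 16 h light and 8 h dark. All 100 µM libraries share a leading digit in their sample codes that no other library has, so that digit and the dose cannot be told apart either. The labels do not tell whether replicates were grown as separate cultures, so the scatter between libraries may be technical. The p-values come from a fit over all 15 libraries. They therefore reflect scatter shared over all 5 groups and not that of these 6 libraries alone.

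Cercosporin is a red pigment made by Cercospora fungi. In light it passes energy to oxygen and yields singlet oxygen and superoxide, which damage membranes. Plants switch on autophagy, protein breakdown and the use of amino acids as fuel when sugar or light runs short, and several of these genes are classic markers of darkness. Jasmonate, made in plastids from membrane lipids, and the AP2/ERF transcription factors belong to fast responses to wounding, cold and touch. Arabinogalactan proteins coat the outer face of the plasma membrane and the cell wall, and receptor-like kinases in that membrane read signals from outside the cell.

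Promoters of 6 genes described here show the short motifs that were counted across all promoters. They are the 250 bases before the annotated start, read from the RefSeq TAIR10.1 genome, which need not be the build of the counts. The first 3 genes lie among the 40 largest falls with no overlap between the groups and hold CGCGTT, known as a binding core of CAMTA factors and of promoters that answer stress within minutes. The capitals mark CGCGTT or its reverse complement AACGCG. They are AT4G32800 (chr4:15819239-15819488, plus strand), EXLA3 (chr3:16892452-16892701, plus strand) and PHI-1 (chr1:12851733-12851982, plus strand).
AT4G32800: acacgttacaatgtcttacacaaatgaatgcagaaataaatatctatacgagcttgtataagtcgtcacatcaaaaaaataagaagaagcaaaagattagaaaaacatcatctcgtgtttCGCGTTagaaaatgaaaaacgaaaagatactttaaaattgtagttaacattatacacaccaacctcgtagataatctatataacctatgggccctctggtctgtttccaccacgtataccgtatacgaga
EXLA3: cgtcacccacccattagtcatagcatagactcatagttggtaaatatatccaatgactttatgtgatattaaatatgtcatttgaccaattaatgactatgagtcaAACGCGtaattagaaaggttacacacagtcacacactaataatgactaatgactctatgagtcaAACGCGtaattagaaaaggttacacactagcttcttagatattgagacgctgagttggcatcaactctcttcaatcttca
PHI-1: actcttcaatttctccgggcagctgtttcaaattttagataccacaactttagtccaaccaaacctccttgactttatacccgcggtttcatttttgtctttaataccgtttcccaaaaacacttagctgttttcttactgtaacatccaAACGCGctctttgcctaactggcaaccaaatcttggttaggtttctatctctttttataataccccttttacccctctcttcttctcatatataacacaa
The next 3 genes belong to the dark and sugar starvation list and were higher at 100 µM. Capitals mark TATCCA, found in promoters that answer sugar shortage, and the I-box GATAAG of light-regulated promoters, each on either strand. They are ASN1 (chr3:17441432-17441681, minus strand), AT3G15450 (chr3:5212734-5212983, plus strand) and BCAT-2 (chr1:3287837-3288086, plus strand).
ASN1: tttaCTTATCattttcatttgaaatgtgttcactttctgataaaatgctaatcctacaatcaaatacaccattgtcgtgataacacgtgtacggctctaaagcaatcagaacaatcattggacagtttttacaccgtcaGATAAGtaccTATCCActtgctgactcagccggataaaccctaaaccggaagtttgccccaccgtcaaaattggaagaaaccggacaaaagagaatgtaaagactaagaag
AT3G15450: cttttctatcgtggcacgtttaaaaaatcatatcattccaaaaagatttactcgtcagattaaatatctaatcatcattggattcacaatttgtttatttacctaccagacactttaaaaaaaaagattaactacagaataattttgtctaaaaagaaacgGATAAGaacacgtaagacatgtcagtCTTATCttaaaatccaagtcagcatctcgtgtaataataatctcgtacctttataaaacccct
BCAT-2: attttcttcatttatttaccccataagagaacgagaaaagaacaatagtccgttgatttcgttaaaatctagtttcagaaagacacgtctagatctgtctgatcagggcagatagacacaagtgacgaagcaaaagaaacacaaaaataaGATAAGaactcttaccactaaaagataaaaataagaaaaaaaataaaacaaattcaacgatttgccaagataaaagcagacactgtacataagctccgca

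At 100 µM, 3392 of 10374 genes (32.7%) passed the edgeR quasi-likelihood test against the controls at a Benjamini-Hochberg adjusted p under 0.05, which is what "called" means here. Of all genes tested 18.1% were called higher and 14.6% lower, and each count of a list or family against the controls is read against these shares. Lists and their members were chosen with earlier results of these data known, so their counts are a description and not a test. Against the pooled lower doses the shares over all genes were 23.1% higher and 19.2% lower. The 1875 genes called higher and the 1517 called lower differed in level and size. Called higher genes had a median of 28.9 CPM (counts scaled to library size) at 100 µM and 7.7 CPM in controls, whereas called lower genes had 21.2 CPM at 100 µM and 48.4 CPM in controls. A change of at least 4-fold was seen in 759 genes called higher and 234 called lower, and one of at least 8-fold in 369 and 65. Of the 369 genes, 258 had under 2 CPM in the controls. Genes near silent in all other groups passed the filter only through the 100 µM libraries. These counts are therefore a description and do not weigh rises against falls. The strand setting of the counts is not known, and the 3' end lay inside a gene of the other strand for 24.6% of genes called higher, 16.3% of those called lower and 21.9% of all tested; reads of such pairs cannot be told apart. Among the genes named below, J8, LHCA4, MTO3, UNE5, OHP2, NPQ1, AT3G15450, BCAT-2, PSAH2 and PSAH-1 are examples with such an end. Over all called genes the gains summed to 14.5% of a library's counts and the losses to 13.6%. With only the 6 libraries in the fit, the spread came from these alone, 8938 genes were tested and 2223 were called. After thinning every library to 834190 counts 1319 were called.

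**Figure D1:**
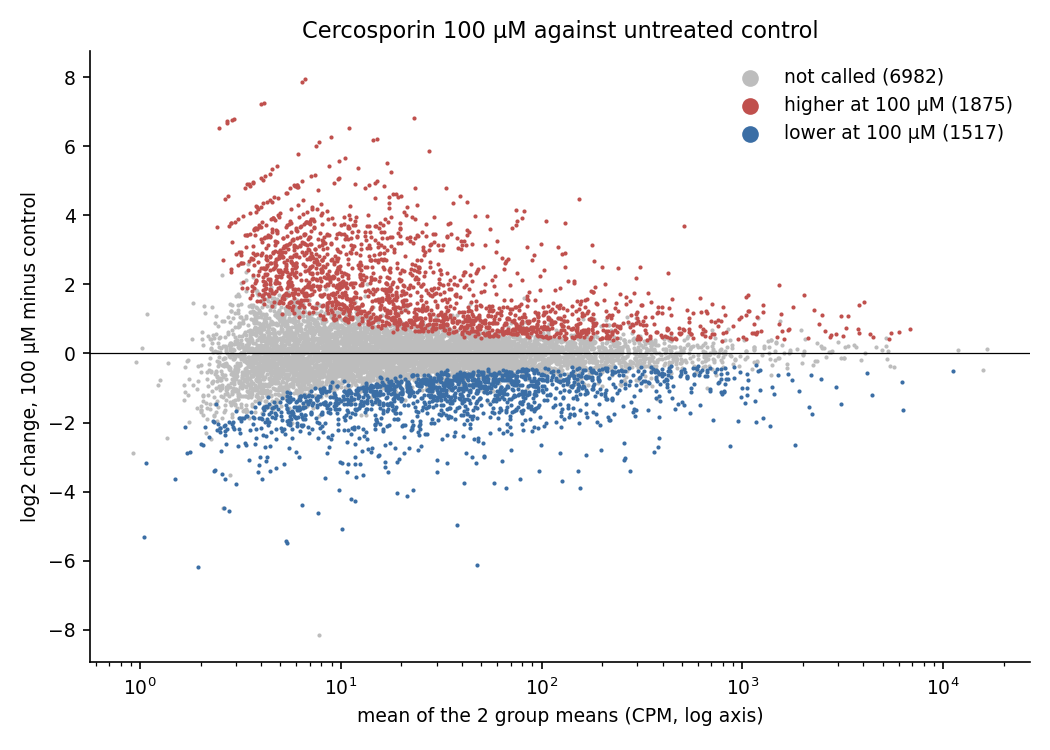
Log2 change of 100 µM minus control (y axis) against the mean of both group means in CPM (x axis, log scale), 1 point per gene tested. The 1875 genes called higher at 100 µM reach further from 0 than the 1517 called lower, mainly at low levels.

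Totals were 1044626 to 2922199 counts at 100 µM and 1689357 to 2243950 in the controls. The 100 µM libraries were less alike: as a description across genes, Pearson's r of log2 CPM between libraries was 0.881 to 0.952 within 100 µM and 0.953 to 0.966 within the controls. Replicate 1 of 100 µM stood apart. In it 145 genes lay at least 8-fold below both other 100 µM libraries, against 2 and 0 such genes in 100 µM replicates 2 and 3 and at most 3 in any control library. The median of these 145 genes was 1.3 CPM in replicate 1 and 31.4 and 30.9 CPM in replicates 2 and 3 of 100 µM, and 27.5 to 33.5 CPM in the controls. In the 9 lower-dose libraries it was 26.9 to 33 CPM. Of the 145 genes, 20 were called against control with replicate 1 and 45 without it. Without replicate 1 the whole comparison called 3561 genes, and 2924 of them are among the 3392. The cause of this gap in 1 library was not tested.

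**Figure D2:**
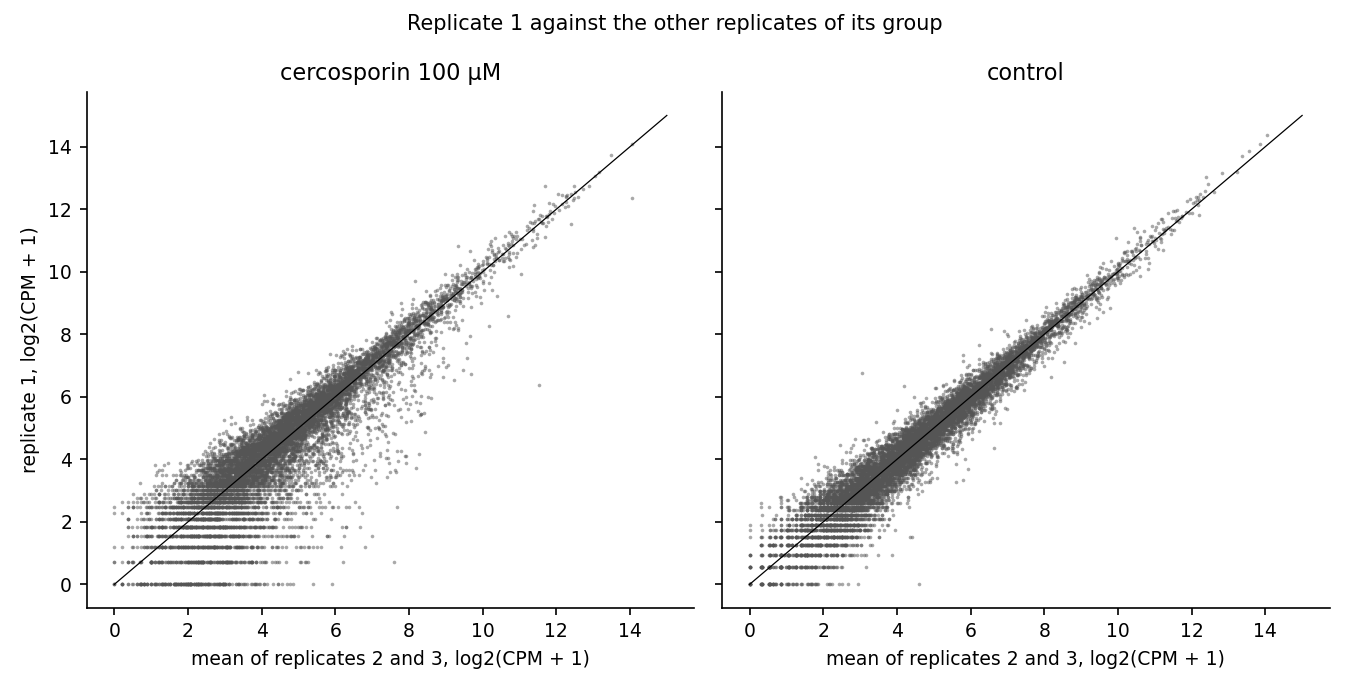
Replicate 1 (y axis) against the mean of replicates 2 and 3 (x axis), both as log2(CPM + 1), for all genes tested at 100 µM (left) and in the controls (right); the line marks equal values. At 100 µM a band of genes lies far under the line, 145 of them at least 8-fold below both other libraries, while the controls stay close to it.

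The 6 called genes in which 100 µM replicate 1 lay farthest from the other replicates were all called lower. UGD2, a UDP-glucose dehydrogenase that makes wall sugar precursors, had 1.95, 49.1 and 64.3 CPM at 100 µM, against 99.2, 107 and 89.6 CPM in the controls. CHR11, a chromatin remodeller, had 0.649, 31.4 and 34 CPM at 100 µM, against 52.1, 58.8 and 57.8 CPM in the controls. The cystatin CYS1, an inhibitor of cysteine proteases, had 1.95, 41.3 and 70.1 CPM at 100 µM, against 97.8, 170 and 105 CPM in the controls. The inositol phosphorylceramide synthase gene AtIPCS2, the ribosomal protein S7e gene AT1G48830 and the hydrolase gene AT3G24420 had the same shape. The groups did not overlap in these 6 genes, but replicates 2 and 3 lay much nearer to the controls than replicate 1 did.

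Some of the largest rises were of genes almost silent in the controls. MYBL2, a repressor of anthocyanin synthesis, had 47.4, 42.2 and 47.4 CPM at 100 µM, against 0, 1.15 and 0 CPM in the controls. Only 2 control counts stand behind this, and the ratio of 100 µM to control was 133 (95% counting interval 36.5 to 1105, exact binomial). Such an interval covers no error other than counting and takes reads as independent. Amplification copies were not removed, so it can be too narrow even for that. KCS12, an enzyme of very-long-chain fatty acid elongation, had 27.9, 23.6 and 34.7 CPM at 100 µM, against 0.461, 0.577 and 0 CPM in the controls, a ratio of 88 (24 to 733). ACD11, a lipid transfer protein whose loss triggers cell death, had 30.5, 17.7 and 13.4 CPM at 100 µM, against 0, 0.577 and 0.54 CPM in the controls, a ratio of 54.5 (14.7 to 456). These 3 genes were picked for large rises with no overlap between the groups, so that separation is a description and not a finding.

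The others among the 12 largest rises at 20 CPM or more were spread over unrelated roles. GSTL3, a lambda class glutathione transferase, had 33.1, 29.5 and 23.7 CPM at 100 µM, against 0.923, 0.577 and 1.08 CPM in the controls (log2 change 4.95 ± 0.48, SE). MKK2, a kinase of the cold and salt MAP kinase cascade, had 34.4, 22.6 and 43 CPM at 100 µM, against 0.461, 0.577 and 1.08 CPM in the controls (5.51 ± 0.56). The iron-sulfur scaffold NFU1 of plastids was at 5.38 ± 0.66, and PDE329, named a calcium homeostasis regulator in RefSeq, at 6.53 ± 1.10 with 1 control count in all. The remaining 5 were AT5G58660, a 2-oxoglutarate dependent oxygenase (6.22 ± 0.82), AT1G21400, AT1G01080, the hydrolase AT2G39400 (4.98 ± 0.55) and AT5G22020 (4.92 ± 0.57). The adjusted p-values of these genes by edgeR lay at or under 0.000196.

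Genes with at most 1 count in every library of one group and 10 CPM or more in the other numbered 22, of which 18 were near silent in the controls and 4 at 100 µM. The filter treats these 2 sides unlike, as a gene silent at 100 µM could also pass through the lower doses. The 18 and 4 are a description. AT5G39520 had 8.44, 15.7 and 15.8 CPM at 100 µM and no count in any control, at least 26.2-fold higher against a floor of 3 counts over the group. AT3G62530, an ARM repeat protein, likewise had no control count and was at least 22.7-fold higher. The R2R3 factor MYB13 had 29.2, 16.7 and 11.7 CPM at 100 µM, against 0.461, 0 and 0.54 CPM in the controls. PBCP, the phosphatase that acts on photosystem II core proteins, had 13, 15.7 and 14.8 CPM at 100 µM, against 0.461, 0 and 0.54 CPM in the controls. On the other side, the actin gene ACT11 had 0.649, 0 and 0 CPM at 100 µM, against 11.1, 9.8 and 10.8 CPM in the controls. A ribosomal protein L30e family gene, AT3G18740, had 0, 0.982 and 0 CPM at 100 µM, against 11.5, 9.23 and 10.3 CPM in the controls. AT2G07870 had no count at 100 µM, but also none in control replicate 1, and edgeR did not call it (adjusted p = 0.119).

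The genes at least 8-fold higher were compared with the lower doses. The median of these 369 genes was 1.15 CPM in the controls, 1.35 CPM at 0.1 µM, 1.68 CPM at 1 µM, 1.09 CPM at 10 µM and 15 CPM at 100 µM. The control and 100 µM levels chose these genes and are a description. A run on simulated counts, in which 9661 genes were tested, recovered 42% of 2-fold and 85% of 4-fold changes. Only a small part of its genes was changed, whereas 32.7% were called here. Changed genes that failed its filter counted as missed. These rates therefore do not measure recovery in this comparison.

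By share of counts, the largest gains included photosynthesis and defence genes. AZI1, a lipid transfer protein of systemic immunity, had 5233, 6144 and 5239 CPM at 100 µM, against 2089, 2285 and 1915 CPM in the controls. J8, a DnaJ-domain protein of plastids, had 3032, 3456 and 2819 CPM at 100 µM, against 846, 1009 and 1027 CPM in the controls (log2 change 1.69 ± 0.13). AT2G33830, of the dormancy and auxin associated family, averaged 8504 ± 852 CPM at 100 µM and 5183 ± 902 CPM in the controls (SD, n = 3 each). The peroxidase AT5G64120 had 2934, 5226 and 5476 CPM at 100 µM, against 1640, 2755 and 2058 CPM in the controls, and lost its call without 100 µM replicate 2 or 3 or control replicate 1 or 3 (edgeR adjusted p of 0.0794 to 0.118). The antenna genes LHCA1, LHCA3 and LHCA4 and the protease RD19 made up the rest of the 8 largest gains.

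The largest losses by share of counts included dehydration proteins and the methyl donor enzyme. MTO3, an S-adenosylmethionine synthetase, had 1322, 911 and 826 CPM at 100 µM, against 3509, 3446 and 3346 CPM in the controls (log2 change -1.75 ± 0.16). UBQ11, a polyubiquitin gene, had 903, 1315 and 1072 CPM at 100 µM, against 3057, 3515 and 2984 CPM in the controls. AT2G23120, a late embryogenesis abundant protein, averaged 1655 ± 181 CPM at 100 µM and 4544 ± 474 CPM in the controls. The dehydrins ERD10, COR47 and ERD14 were also among the 8, as was the clock-controlled RNA-binding protein GRP7, at 6813, 3333 and 3276 CPM in 100 µM libraries, against 9123, 6443 and 8299 CPM in the controls. Its replicate 1 at 100 µM overlapped with the controls. The mitochondrial gene ATMG00020 had 3901, 2562 and 2744 CPM at 100 µM, against 9333, 10882 and 8453 CPM in the controls. Of 53 organelle genes tested 23 were lower and 5 higher at 100 µM. Mitochondrial genes held 0.438, 0.312 and 0.318% of counts at 100 µM, against 0.961, 1.19 and 0.904% in the controls. ATMG00020 alone made up most of this share in every library of both groups. The share therefore does not describe mitochondrial genes as a class, and the part of RNA quality in it was not tested.

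**Figure D3:**
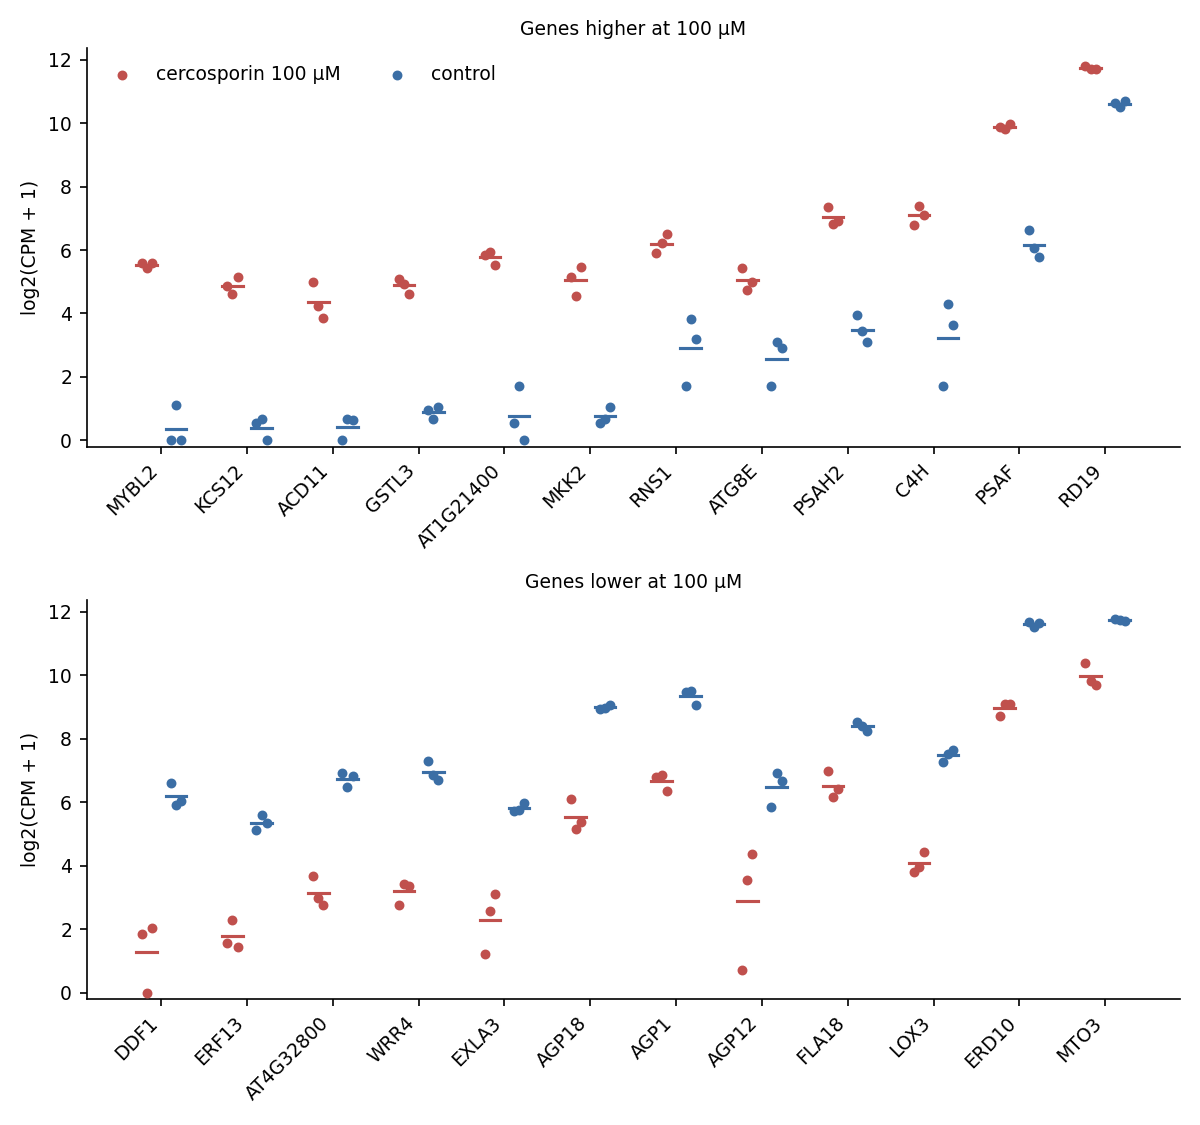
Level of each library as log2(CPM + 1) (y axis) for 12 genes higher (top) and 12 lower (bottom) at 100 µM, with 100 µM left of control for each gene; points are libraries and bars are means. In all 24 genes, picked among called genes, the libraries of both groups stand apart, as in 3218 of all 3392 called genes and 4337 of all 10374 genes tested. AGP12 has its lowest value in 100 µM replicate 1.

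AP2/ERF factors were among the largest falls. ERF13 had 1.95, 3.93 and 1.72 CPM at 100 µM, against 34.1, 47.3 and 39.4 CPM in the controls. AT4G32800 had 11.7, 6.88 and 5.84 CPM at 100 µM, against 120, 88.2 and 112 CPM in the controls (log2 change -3.75 ± 0.25). ERF53 had 1.95, 0 and 1.03 CPM at 100 µM, against 8.77, 33.5 and 24.8 CPM in the controls. With DDF1 and AT1G22810, this family gave 5 of the 12 largest falls at 20 CPM or more. Among 35 tested genes with the RefSeq product "Integrase-type DNA-binding superfamily protein", the AP2/ERF description, 12 were lower and 6 higher, and their median log2 change was -0.04, which turned to 0.02 with upper quartile scaling. The higher ones were led by AT5G61590 with 132, 119 and 83.5 CPM at 100 µM, against 19.4, 13.3 and 15.7 CPM in the controls.

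The other large falls included immunity genes. WRR4, a resistance protein against white rust, had 5.84, 9.82 and 9.28 CPM at 100 µM, against 156, 114 and 104 CPM in the controls. AT2G17660, of the RIN4 family that immune receptors guard, had 0.649, 1.96 and 1.03 CPM at 100 µM, against 27.7, 13.3 and 22.7 CPM in the controls. PHI-1, a growth gene that answers phosphate and brassinosteroid, had 31.8, 24.6 and 22.7 CPM at 100 µM, against 298, 275 and 261 CPM in the controls. EXLA3, an expansin-like wall protein, had 1.3, 4.91 and 7.56 CPM at 100 µM, against 51.7, 53.1 and 61.5 CPM in the controls. AT2G35290, AT1G78070 and the heavy metal domain gene AT1G51090 fell by 3.90, 3.95 and 3.69 on the log2 scale. The chloroplast gene ATCG00640 gave the largest fall, and AT1G56045, a ribosomal protein L41 gene at -3.76 ± 0.43, has a near-identical copy and is uncertain.

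Arabinogalactan proteins were lower at 100 µM as a family. Of 20 tested AGP genes 14 were called lower and 1 higher, with a median log2 change of -1.51, against 14.6% lower and a median of -0.02 over all genes. AGP18 had 67.5, 34.4 and 40.9 CPM at 100 µM, against 485, 501 and 530 CPM in the controls (-3.40 ± 0.20). AGP1 had 110, 114 and 81.5 CPM at 100 µM, against 712, 717 and 534 CPM in the controls. AGP2 had 106, 86.4 and 74.9 CPM at 100 µM, against 566, 752 and 599 CPM in the controls. In each of these 3 genes no 100 µM library came near a control library. AGP16 was the exception, with 30.5, 20.6 and 27.8 CPM at 100 µM, against 8.77, 10.4 and 10.8 CPM in the controls. The 5 members that were not called were AGP3, AGP5, AGP24, AGP30 and AGP31.

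Fasciclin-like arabinogalactan proteins, a separate family with an adhesion domain, gave 9 genes lower and 1 higher of 13, with a median of -1.31. Without 100 µM replicate 3, 5 of them were lower. FLA18 had 125, 70.7 and 85.2 CPM at 100 µM, against 367, 340 and 299 CPM in the controls (-1.83 ± 0.18). FLA9 had 226, 93.3 and 135 CPM at 100 µM, against 492, 345 and 377 CPM in the controls. FLA13 moved the other way, with 1374, 1276 and 1380 CPM at 100 µM, against 930, 809 and 931 CPM in the controls. Glycine-rich proteins, some of which sit in the wall, had 10 of 23 genes lower and 2 higher.

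Among 15 genes with the RefSeq product leucine-rich receptor-like protein kinase 10 were called lower and none higher, with a median of -1.08. Other kinase groups leaned less or not at all. The product leucine-rich repeat protein kinase gave 12 lower and 4 higher of 42, with a median of -0.43, and the CRK genes, cysteine-rich receptor-like kinases, gave 2 lower and 2 higher of 12, with a median of -0.03. BAM1, a receptor of CLE peptides in meristems and phloem, had 23.4, 23.6 and 30.2 CPM at 100 µM, against 66, 49.6 and 50.2 CPM in the controls. ER, which shapes organs and stomatal spacing, had 1.3, 9.82 and 8.25 CPM at 100 µM, against 22.2, 16.7 and 16.2 CPM in the controls. HAE, the receptor of floral organ shedding, GHR1, a kinase of guard cell closure, and BAM2 were also lower, at -1.07 ± 0.28, -1.68 ± 0.43 and -1.01 ± 0.32. Thinning all libraries to the smallest total left 4 genes of the first group called.

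Of 15 PUB genes, which encode U-box ubiquitin ligases, 8 were lower and 1 higher. PUB9 had 9.08, 7.86 and 14.4 CPM at 100 µM, against 29.5, 54.2 and 52.9 CPM in the controls. The higher one was PUB22, a ligase that dampens immune signalling, with 10.4, 12.8 and 13.7 CPM at 100 µM, against 0.461, 0.577 and 1.08 CPM in the controls.

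The symbol GRF covers both 14-3-3 proteins, adaptors that bind phosphorylated partners, and unrelated growth-regulating factors. Of 8 tested 14-3-3 genes 6 were higher and 0 lower, while of 4 growth-regulating factors none was called. GRF6 had 3466, 3535 and 3374 CPM at 100 µM, against 2368, 2362 and 2371 CPM in the controls. GRF10 had 11, 9.82 and 8.25 CPM at 100 µM, against 2.31, 0.577 and 0 CPM in the controls. This split was made after the values were seen. Major facilitators, a superfamily of sugar, nitrate and other transporters, had 16 of 35 genes higher and 2 lower, and 10 higher without 100 µM replicate 3. ERD6, a sugar carrier, had 27.3, 22.6 and 21.3 CPM at 100 µM, against 6, 4.61 and 8.64 CPM in the controls. MSS1, a hexose importer also known as STP13, had 83.1, 169 and 148 CPM at 100 µM, against 35.5, 88.8 and 53.5 CPM in the controls, so the groups overlapped, and it lost its call without 100 µM replicate 2 or control replicate 1 (edgeR adjusted p of 0.0515 and 0.0717). 

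Further families leaned one way by smaller counts. Of 15 acyl-CoA N-acyltransferases 7 were higher and 2 lower, and of 31 2-oxoglutarate dependent oxygenases 11 were higher and 2 lower, AT5G58660 with 29.2, 31.4 and 29.2 CPM at 100 µM, against 0.461, 0.577 and 0 CPM in the controls among them. Of 18 GRAS factors 6 were lower and 0 higher, among them HAM3 and HAM4, which keep shoot meristem cells undifferentiated. TCP factors, which set leaf growth, gave 5 lower and 1 higher of 11, and TCP9 had 22.1, 23.6 and 13.4 CPM at 100 µM, against 78, 65.8 and 67.5 CPM in the controls. Translation initiation factors gave 6 lower and 1 higher of 15. KCS enzymes split, with 5 lower and 3 higher of 12, and 3 lower without control replicate 1. KCS3 had 9.08, 20.6 and 13.7 CPM at 100 µM, against 86.3, 76.7 and 82.1 CPM in the controls, while KCS12, given above, was higher. Of 227 genes with ribosomal protein in their product 51 were lower and 28 higher.

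**Figure D4:**
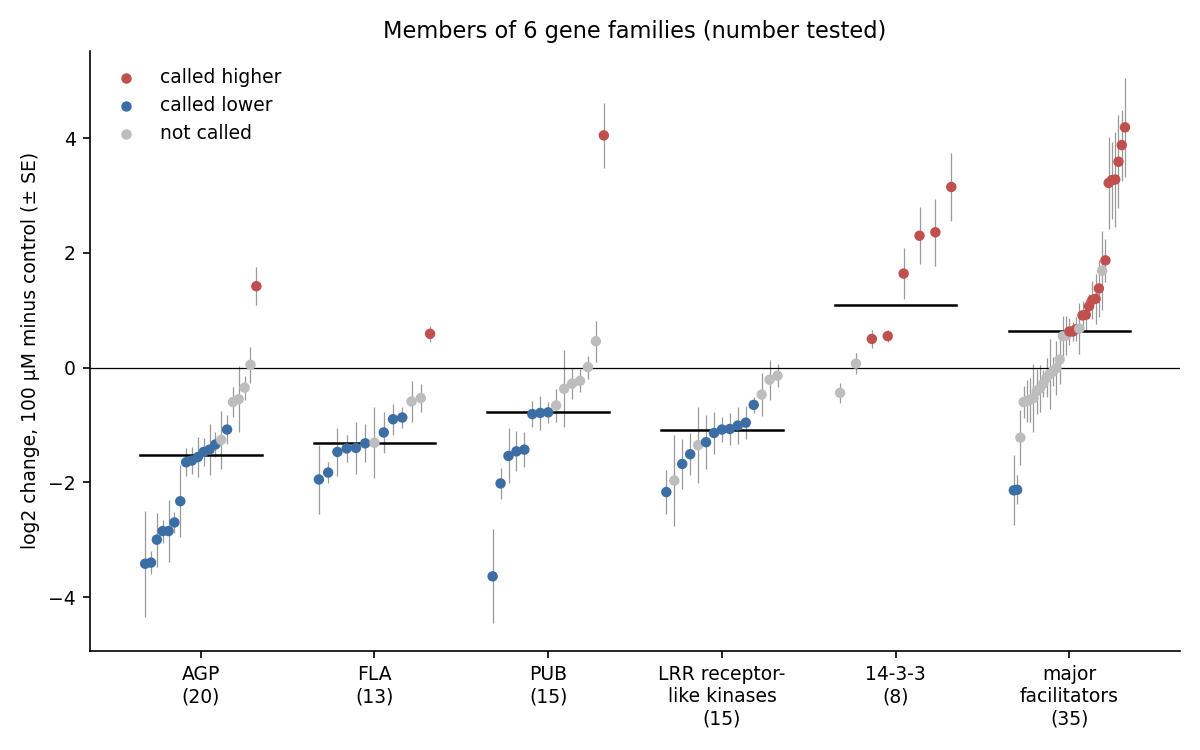
Log2 change of 100 µM minus control with its SE (y axis) for every tested member of 6 families, sorted within each family; black bars mark medians. AGP, FLA, PUB and LRR receptor-like kinase members lie mostly below 0, with medians of -1.51, -1.31, -0.78 and -1.08, while 14-3-3 and major facilitator members reach high above it.

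Genes of dark and sugar starvation were higher at 100 µM in 11 of 19 cases and lower in none, with a median log2 change of 1.05. AT1G21400, a thiamine diphosphate-binding protein in RefSeq, had 56.5, 60.9 and 44.7 CPM at 100 µM, against 0.461, 2.31 and 0 CPM in the controls. MCCA, the methylcrotonyl-CoA carboxylase subunit of leucine breakdown, had 156, 185 and 193 CPM at 100 µM, against 68.3, 68.1 and 67.5 CPM in the controls. BXL1, a wall xylosidase, had 810, 639 and 799 CPM at 100 µM, against 318, 297 and 315 CPM in the controls. ASN1, the asparagine synthetase known as the leading dark-induced gene, had 1870, 2280 and 2214 CPM at 100 µM, against 1176, 1351 and 1402 CPM in the controls. BCAT-2, a branched-chain amino acid transaminase, had 124, 480 and 552 CPM at 100 µM, against 90.9, 205 and 135 CPM in the controls, so its 100 µM replicate 1 overlapped with the controls. That of BCE2 did too, and that of IVD, which was not called, lay below every control. Summed over the list, the 100 µM libraries had 4225, 8295 and 9152 CPM, against 3197, 3797 and 3622 CPM in the controls. The rise of the sum was thus mostly in replicates 2 and 3. Against the 0.1, 1 and 10 µM seedlings, which went through the same hour of darkness as those at 100 µM, 11 of the 19 genes were higher and 0 lower at 100 µM, with a median of 0.93, where 23.1% of all genes were higher and 19.2% lower.

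Autophagy and vacuolar breakdown genes were higher in 8 of 13 cases and lower in none, with a median of 1.10. RNS1, a vacuolar ribonuclease, had 58.4, 73.7 and 89.4 CPM at 100 µM, against 2.31, 13.3 and 8.1 CPM in the controls. The ubiquitin-like protein that coats autophagosomes is encoded by several ATG8 genes. ATG8E had 42.2, 25.5 and 30.6 CPM at 100 µM, against 2.31, 7.5 and 6.48 CPM in the controls. ATG8C and APG8H were at 3.66 ± 0.80 and 2.54 ± 0.58. RD19, a papain-type protease, had 3547, 3366 and 3365 CPM at 100 µM, against 1611, 1455 and 1654 CPM in the controls, with no overlap. The vacuolar processing enzymes GAMMA-VPE and ALPHA-VPE were at 0.09 and -0.33 and were not called. Senescence and cell death genes were higher in 7 of 9 cases and lower in none; besides NAP and NAC6 they were the chlorophyll breakdown enzymes PPH (188, 204 and 174 CPM at 100 µM, against 102, 117 and 113 CPM in the controls) and ACD1, AT1G66330, LSD1 and MC2. ACD1 and MC2 each lost the call when a single library was left out, with edgeR adjusted p of 0.0553 to 0.135.

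Endoplasmic reticulum folding genes were higher in 8 of 13 cases and lower in none, with a median of 0.87. UNE5, a protein disulfide isomerase, had 20.8, 31.4 and 21 CPM at 100 µM, against 4.15, 2.88 and 3.78 CPM in the controls. The calnexin and calreticulin lectin chaperones were higher from high levels, with CRT1b at 315, 361 and 376 CPM in 100 µM libraries, against 189, 215 and 155 CPM in the controls. The BiP chaperones that such folding stress classically raises were not called against control, BIP1 at 0.25, BIP2 at -0.07 and BIP3 at 1.43 on the log2 scale. Against the lower doses 12 of the 13 were higher, where 23.1% of all genes were, and the 3 BiP genes were among them, BIP1 at 0.69 ± 0.12, BIP2 at 0.48 ± 0.15 and BIP3 at 2.57 ± 0.69. BIP3 had 9.73, 14.7 and 8.94 CPM at 100 µM, against 0.923, 11 and 0.54 CPM in the controls, and without control replicate 2 it was called against control. BIP1 and BIP2 have near-identical copies and are uncertain.

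Light-harvesting antenna genes were higher in 9 of 17 cases, and 1 was lower. LHCB2.1 had 398, 476 and 455 CPM at 100 µM, against 131, 107 and 157 CPM in the controls, and LHCA4 had 3998, 4741 and 3978 CPM at 100 µM, against 2007, 1663 and 2295 CPM in the controls. CAB1, an abundant antenna gene, had 9404, 10111 and 8210 CPM at 100 µM, against 14801, 9785 and 14934 CPM in the controls, with overlap. CAB1 and CAB3 have near-identical copies, so their split is uncertain, and each lost its call without some libraries. LHCB2.1 averaged 193, 348 and 78.6 CPM at 0.1, 1 and 10 µM, so the level of the controls was not the level of every lower dose. Tetrapyrrole genes were higher in 6 of 14 cases and lower in none. CHLI1, a magnesium chelatase subunit, had 36.3, 14.7 and 16.2 CPM at 100 µM, against 0.461, 1.73 and 2.16 CPM in the controls. HEMC had 99.9, 39.3 and 61.2 CPM at 100 µM, against 24, 31.7 and 26.5 CPM in the controls. Among photoprotection genes OHP2, a one-helix protein, had 67.5, 34.4 and 45.4 CPM at 100 µM, against 8.77, 2.88 and 6.48 CPM in the controls, and NPQ1, the violaxanthin de-epoxidase, was at 3.37 ± 0.55.

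Within photosystem I, gene copies of one subunit did not move alike. PSAH2 had 164, 111 and 120 CPM at 100 µM, against 14.3, 9.8 and 7.56 CPM in the controls, while PSAH-1 was at -0.46 and was not called. The 3' ends of PSAH2 and PSAH-1 each lie inside a gene of the other strand, so their split is uncertain. PSAD-2 had 1291, 1452 and 1530 CPM at 100 µM, against 814, 544 and 634 CPM in the controls, while PSAD-1 was at 0.14. Of 12 subunit genes 4 were higher and 0 lower, and of 11 photosystem II genes 0 were higher and 2 lower. PSBX, a small photosystem II subunit, had 15.6, 117 and 252 CPM at 100 µM, against 431, 450 and 490 CPM in the controls, with a wide spread at 100 µM. Aquaporins, the water channels of membranes, were split too, with 4 of 16 higher and 4 lower, and 2 higher without control replicate 1. PIP1A had 1151, 940 and 980 CPM at 100 µM, against 325, 378 and 439 CPM in the controls, and GAMMA-TIP had 951, 583 and 833 CPM at 100 µM, against 1332, 1173 and 1558 CPM in the controls.

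Neighbouring steps of a pathway did not all move. C4H, cinnamate hydroxylase of lignin synthesis, had 110, 168 and 137 CPM at 100 µM, against 2.31, 18.5 and 11.3 CPM in the controls, while PAL1, the first enzyme of that pathway, was at -0.13 and PAL2 at -0.50, neither called. OMT1, a methyltransferase, had 66.8, 68.8 and 80.1 CPM at 100 µM, against 6, 9.8 and 7.02 CPM in the controls. In glucosinolate synthesis SOT16 and UGT74B1, late steps, were at 3.95 ± 0.36 and 3.88 ± 0.39, while CYP79B2 and CYP79F1, entry steps, were at -0.61 and -0.00 and not called. XTH24, a wall-loosening enzyme, had 563, 479 and 524 CPM at 100 µM, against 106, 95.2 and 78.3 CPM in the controls, while XTH8 fell by 1.71 and EXLA2 by 3.64 on the log2 scale.

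Jasmonate synthesis and breakdown genes were lower in 8 of 14 cases and higher in 1, with a median of -1.02. LOX4, a lipoxygenase, had 9.08, 17.7 and 10.3 CPM at 100 µM, against 90, 107 and 76.7 CPM in the controls. AOC3, the allene oxide cyclase, had 78.5, 77.6 and 65.3 CPM at 100 µM, against 215, 287 and 282 CPM in the controls. CYP94C1, which oxidises the active hormone, had 164, 306 and 184 CPM at 100 µM, against 552, 624 and 512 CPM in the controls. Each of these genes had 100 µM libraries all below the controls, and 3218 of all 3392 called genes had no overlap. Over all 10374 genes tested, 4337 had no overlap. LOX2 was the 1 higher gene, and its call was lost on leaving out any one of 4 libraries (edgeR adjusted p of 0.0591 to 0.2). The singlet oxygen list, drawn from work on flu plants, held 5 lower and 0 higher genes of 13, with a median of -0.58, and 3 were lower without control replicate 2. Auxin response genes were lower in 3 of 7 cases, IAA19 with 8.44, 3.93 and 4.81 CPM at 100 µM, against 46.6, 31.7 and 36.2 CPM in the controls.

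Reactive oxygen scavenging genes were higher in 3 and lower in 3 of 15 cases. APX1, the cytosolic ascorbate peroxidase, had 592, 916 and 879 CPM at 100 µM, against 1387, 1695 and 1884 CPM in the controls. The copper-zinc superoxide dismutase CSD1 had 354, 380 and 305 CPM at 100 µM, against 190, 231 and 192 CPM in the controls. Detoxification genes were higher in 1 and lower in 4 of 12 cases; GSTF6 had 39.6, 60.9 and 52.2 CPM at 100 µM, against 14.8, 21.3 and 8.1 CPM in the controls. Heat shock genes were lower in 4 of 13 cases and higher in none, but 2 were lower without 100 µM replicate 1. Salicylate and immune genes were higher in 3 of 10 cases. Mitochondrial stress genes gave 2 higher and 2 lower of 7. Abscisic acid, dehydration and cold genes were higher in 2 and lower in 6 of 15.

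The remaining lists gave 4 higher and 1 lower of 10 clock genes, 3 higher and 1 lower of 7 touch genes, and 3 higher and 6 lower of 15 wall genes. Calvin cycle genes gave 3 higher and 2 lower of 16, JAZ repressors and jasmonate factors 2 and 2 of 11, and primary cellulose genes 1 higher and 2 lower of 7. Phenylpropanoid genes were higher in 3 of 12 cases and glucosinolate genes in 4 of 12, with 0 lower in both. Lists of this size give shares that 1 gene can move by several percentage points.

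**Figure D5:**
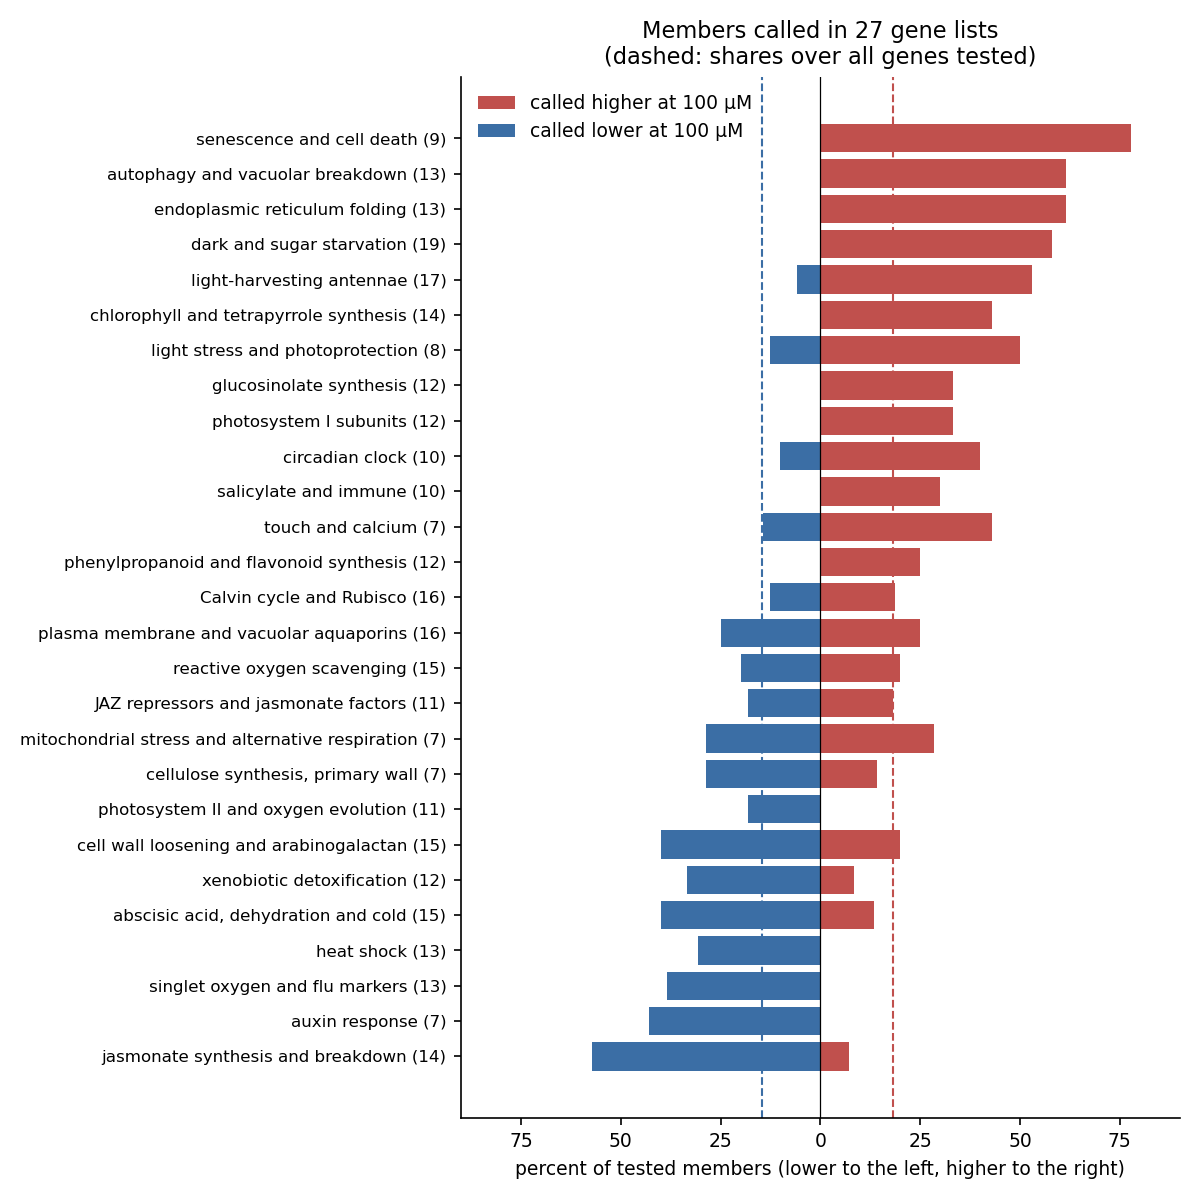
Share of tested members called higher at 100 µM (right) and lower (left) in 27 gene lists, with the number tested in brackets; dashed lines are the shares over all genes, 18.1% and 14.6%. Senescence, autophagy, folding and starvation lists reach furthest right, and the jasmonate list furthest left. The lists were chosen with earlier results of these data known, so the shares are a description.

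Across 10180 promoters of tested genes, CGCGTT on either strand stood in 3.9% of the 300 bases from 250 before to 50 after the start. It stood in 3.03% of promoters of genes called higher and 8.2% of those called lower, and in 11.6% of those at least 4-fold lower. Read the other way, of 397 tested genes with CGCGTT 121 were lower and 56 higher. With the 250 bases before the start alone, the shares were 2.11% for genes called higher, 5.42% for genes called lower and 2.77% over all. TATCCA stood in 21.2% of promoters of higher genes, 14.2% of lower genes and 17.4% of all. The I-box stood in 19.9% of promoters of higher genes, 13.6% of lower genes and 15.5% of all. The W-box (TTGACC or TTGACT) of WRKY factors gave 33.2%, 33.1% and 32.5% in the same order, and the DREB core CCGAC 15.1%, 17.7% and 16%. Other motifs counted also differed. Site II (TGGGCC or TGGGCT) stood in 25.4% of higher, 22.4% of lower and 25.9% of all, and in 14.8% of those at least 4-fold lower. The G-box CACGTG gave 10.2%, 7.79%, 9.11% and 4.63% in the same order. The telo-box AAACCCTA gave 4.11% of higher, 6.78% of lower and 5.02% of all. Not all motifs counted are given here. Motifs can overlap each other. These matches are descriptions of letters and not of bound sites.

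Against the pooled 0.1, 1 and 10 µM seedlings, which shared the dark step, the washes and the lighting, 4387 of 10374 genes (42.3%) were called, 2399 higher and 1988 lower at 100 µM. This contrast rests on 9 libraries in place of 3. Both comparisons share the 100 µM libraries, so they are not separate evidence, and members are given side by side. AGP18 was at -3.01 ± 0.18 against the lower doses and -3.40 ± 0.20 against control. MYBL2 was at 5.93 ± 0.38 and 6.83 ± 0.65, RNS1 at 3.12 ± 0.25 and 3.27 ± 0.36, and AT3G15450 at 4.47 ± 0.16 and 4.48 ± 0.25 in the same order. Antenna genes differed more between the references. Against the lower doses 7 of 17 were higher and 1 lower, with a median of 0.24. Against control 9 were higher and 1 lower, with a median of 0.60. CAB2 was at 0.38 ± 0.16, not called, against the lower doses and 1.41 ± 0.20 against control. The pooled lower doses against control gave 0 calls by edgeR and limma-voom and 6 by DESeq2, with 521 genes at an unadjusted p under 0.05.

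Cell type markers showed the green tissue of a seedling, with 16755 to 29964 summed CPM of the 6 mesophyll markers at 100 µM and 26253 to 37933 in the controls. The lowest sum was that of 100 µM replicate 1, where RBCS1A had 5304 CPM, against 16980 and 17226 CPM in replicates 2 and 3. Of these markers PSAD-2 (1.10 on the log2 scale) was called higher and CAB1 (-0.51) lower, and the others were not called. Among the 6 root markers tested, 2 were higher, the endoplasmic reticulum body glucosidase PYK10 with 44.8, 36.3 and 31.3 CPM at 100 µM, against 5.54, 8.07 and 9.72 CPM in the controls, and PHT1;1; their summed level was 214 to 325 CPM at 100 µM and 156 to 202 CPM in the controls. Of 3 phloem markers the loader SUC2 was lower, with 187, 112 and 169 CPM at 100 µM, against 342, 288 and 288 CPM in the controls. The other phloem markers, APL at -0.24 and SEOR1 at -0.18 on the log2 scale, were not called. The epidermal markers PDF1 and ATML1 were lower. Root hair markers gave 1 higher of 2 tested, endodermis markers 1 of 3 and xylem markers 0 of 2, with 0 lower in each. Of 3 guard cell markers FAMA (-0.61) and HT1 (-1.47) were lower, and EPF1 (0.86) was not called. The seed storage gene SESA1 was near 0 in both groups, at 1.95, 0.982 and 0.344 CPM in 100 µM libraries, against 0.923, 0.577 and 1.62 CPM in the controls. In bulk seedlings fewer cells of a type and less RNA per cell cannot be told apart, and the part of cell types in the families above was not tested.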

How the data were processed

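RNA was read with MARS-seq, a 3'-end method, in 15 libraries of 5 groups of 3, and this text uses 100 µM and control with the lower doses as a further reference. Raw counts per gene were deposited without removal of amplification copies by molecular identifiers, per the file headers, so they are not independent molecules. Counting intervals take them as independent, so they can be too narrow even for counting error, and they cover no other error. The same deposited table holds normalised counts (signal) and regularised log2 values, and the authors' log2 fold changes with p-values for pairs of numbered groups; these were not used, because no label ties the numbers to doses. The submitters' processing notes name bcl2fastq 2.17.1.14, cutadapt 1.8.3, STAR, HTSeq and DESeq2; the sources used here give no genome build, annotation or strand setting. Every per-sample column was matched to a sample, with 0 left over. Total counts were 1044626 to 2922199 at 100 µM and 1689357 to 2243950 in controls.

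Counts were tested with edgeR 4.0.16 in R 4.3.3 (TMM, filterByExpr, quasi-likelihood fit over 15 libraries, Benjamini-Hochberg adjusted p under 0.05). DESeq2 1.42.0 and limma 3.58.1 were alternatives. The fit was checked on simulated counts, where 6 unchanged genes were called. Replicate numbers did not pair the samples (correlations of deviations 0.09, 0.07 and 0).

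Named genes were the 12 largest called changes each way with no overlap and at least 20 CPM in one group, the 8 largest gains and losses in CPM, genes near silent in one group, the called genes with replicate 1 far apart, and members of lists and families. Families came from symbol stems with 10 or more tested genes and RefSeq products with 15 or more. Members and lists were chosen with earlier results of these data known; the split of the GRF symbols, the ribosomal protein group and the promoters shown were chosen after values were seen. Of gene IDs, 14103 matched RefSeq TAIR10.1 and 87 did not. Motifs were counted on both strands. A near-identical copy means 90% identity over 75 bases at the transcript's end. The markers KAT1 and FDH were left out because their symbols matched other genes. The result for 1 gene family is not reported here.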

Additional observations from a re-analysis of the deposited data

How the results depend on the processing

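With only the 6 libraries of both groups in the fit, 2223 genes were called at 100 µM against control, 905 of them lower, and 2210 of these are among the 3392. With libraries thinned to 834190 counts 1319 were called (675 higher, 644 lower), where fewer counts and fewer genes entered. A minimum fold change of 1.5 gave 1803 (1150 higher, 653 lower). Against the pooled lower doses, thinning gave 1999 (1116 higher, 883 lower) and the minimum fold change 2299 (1465 higher, 834 lower). Leaving out single replicates gave 3004 to 3561 against control (1647 to 1880 higher, 1309 to 1681 lower) and 3988 to 4847 against the lower doses (2158 to 2723 higher, 1712 to 2171 lower). With the replicate block, 3469 and 4466 genes were called, and the replicate numbers are not a pairing given by the labels. DESeq2 gave 3364 calls and limma-voom 3394. Among the named genes, none called in either of the fits compared changed direction under the 18 alternatives. In them 164 values of 73 genes, called in neither fit, changed sign, as did 49 medians of 16 lists, families or motifs. For the named genes, 424 recomputed values lost the call and 91 gained it. These counts do not cover the other genes. Over all genes, the thinned libraries kept 1291 of the 3392 calls. Of simulated 2-fold changes 42% were recovered, with far fewer changed genes than were called here. Such changes can be missed at this depth and number of libraries, at a rate that the simulation does not give.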
